A study of Mus musculus with 12 samples.

Results

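The 32 genes described here are transporters, secreted proteins and regulators of the choroid plexus epithelium, taken as a fixed set of symbols from the total RNA table of mouse hippocampus. All 32 were among its 24736 symbols, and all 32 passed the count filter that left 18060 genes for testing. The libraries came from 3 male mice of 4 months that carry the APPswe and PSEN1dE9 transgenes (APP/PS1) and from 3 wild-type (WT) littermates of the same age, whose sex the labels leave unstated, with WT numbered 1, 2 and 4 and APP/PS1 numbered 1, 2 and 3. A small RNA table gave 3 further columns per genotype. The labels do not state the strain or the transgene promoter. Libraries of a genotype were taken to be 1 mouse each.

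The choroid plexus is a frond of secretory epithelium over a vascular stroma that hangs into the brain ventricles, one of them lying against the hippocampus. Its epithelial cells make cerebrospinal fluid by moving sodium, chloride, bicarbonate and water from blood to ventricle. They also secrete carrier proteins and take up vitamins and hormones for the brain. The epithelium is not part of the hippocampus proper, but its transcripts can reach a hippocampal sample with attached ventricular tissue. Whether such tissue was attached to these samples was not tested. In such bulk samples more cells of this type and more RNA per cell cannot be told apart.

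Each total RNA library held between 120958765 and 146904552 estimated counts in all. All 12 markers of hippocampal principal neurons were above 0 in every library, and their summed expression was 1187 to 1292 CPM (counts scaled to library size with TMM factors) in WT, 1330 and 1183 in APP/PS1 replicates 1 and 2, and 716 in APP/PS1 replicate 3. APP/PS1 replicate 3 thus stood apart in its principal neuron markers. The 32 choroid plexus genes were also above 0 in all 6 libraries. Their summed level was 2768, 3231 and 2866 CPM in WT replicates 1, 2 and 4, and 3163, 6797 and 4279 CPM in APP/PS1 replicates 1, 2 and 3. The sum in APP/PS1 replicate 2 was 2.08 times the mean of the other 5 libraries, or 1.97 times with Ttr left out.

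**Figure D1:**
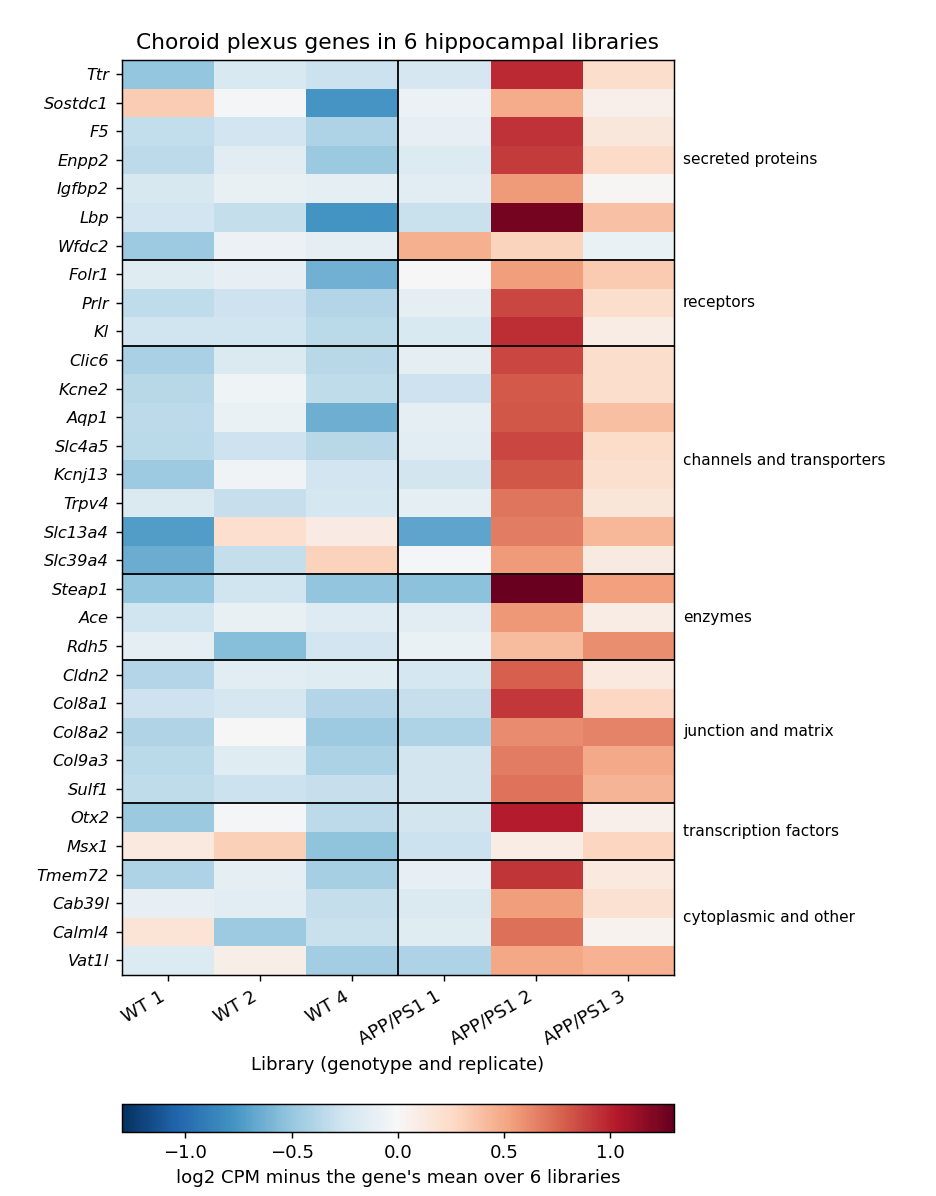
Log2 CPM of each of the 32 genes minus that gene's own mean over 6 libraries, by library (columns) and role (blocks of rows), red above and blue below the mean. The column of APP/PS1 replicate 2 is the darkest red for 28 of 32 genes, while Msx1, Wfdc2, Rdh5 and Col8a2 have their highest library elsewhere.

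The comparison of genotypes asked whether these genes differ between APP/PS1 and WT hippocampus. All 32 had a positive log2 fold change (APP/PS1 over WT), with a median of 0.63 and a range of 0.04 to 1.03, where the median over all genes tested was 0.01. With edgeR's quasi-likelihood test and Benjamini-Hochberg adjustment over all 18060 genes, 0 of 32 passed 0.05, with adjusted p from 0.887 to 0.98, and 1 gene in all passed (0.00554% of genes tested). DESeq2 and limma-voom called 0 of 32 as well. At an unadjusted p under 0.05, 14 of 32 (43.8%) were higher in APP/PS1 in edgeR's fit, against 1.9% of all genes tested. In 10 of 32 (31.2%) every APP/PS1 library lay above every WT library, against 5.63% of all genes tested. The 32 genes were chosen with earlier results of these libraries known, so these shares are a description of the set.

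The values rest unevenly on the libraries. Without APP/PS1 replicate 2 the median log2 fold change was 0.31 and 4 genes, Clic6, F5, Prlr and Slc4a5, had an unadjusted p under 0.05, against 3.13% of all genes higher at that level. All 32 fold changes were still positive. Without APP/PS1 replicate 1 the median was 0.85 and 26 genes had an unadjusted p under 0.05, against 4.87% of all genes. Without WT replicate 4 the median was 0.61 but 0 genes had an unadjusted p under 0.05, and without WT replicates 1 and 2 in turn 2 and 7 did. In these fits 1.10%, 0.952% and 1.07% of all genes were higher at that level. Without APP/PS1 replicate 3, the library with low principal neuron markers, the median was 0.59 and 14 genes had an unadjusted p under 0.05, against 1.88% of all genes.

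The secreted proteins came first among the values. Ttr encodes transthyretin, the thyroxine carrier that this epithelium releases into cerebrospinal fluid. It stood at 1262, 1552 and 1466 CPM in WT replicates 1, 2 and 4 and at 1533, 3481 and 2092 CPM in APP/PS1 replicates 1, 2 and 3. APP/PS1 replicate 1 lay inside the WT range and the other two APP/PS1 libraries above it. The log2 fold change was 0.73 (SE 0.29), or 0.34 (SE 0.17) without APP/PS1 replicate 2.

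Enpp2 encodes autotaxin, a secreted enzyme that makes lysophosphatidic acid and is also made by oligodendrocytes. It was likewise highest in APP/PS1 replicates 2 and 3, at 766, 871 and 691 CPM in WT and 855, 1811 and 1148 CPM in APP/PS1, with a log2 fold change of 0.71 (SE 0.27). F5, which encodes coagulation factor V, stood at 47.5, 49.99 and 44.8 CPM in WT and at 54.9, 113 and 65.6 CPM in APP/PS1. The groups did not overlap for F5, although its lowest APP/PS1 library was only slightly above WT. Lbp, the lipopolysaccharide-binding protein gene, stood at 12.9, 12.4 and 8.89 CPM in WT and at 12.5, 36.1 and 19.8 CPM in APP/PS1, with a log2 fold change of 1.00 (SE 0.38). Its replicate 2 value was 2.72 times the mean of the other 5 libraries.

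Igfbp2, which encodes a binding protein of insulin-like growth factors, was at 38.5 to 41.8 CPM in WT and at 40.5, 65.2 and 44.99 CPM in APP/PS1. Outside replicate 2 its 5 libraries had a coefficient of variation of only 5.71%. Sostdc1, a secreted antagonist of BMP and Wnt signals, behaved otherwise, with 41.0, 32.002 and 19.1 CPM in WT and 30.9, 45.3 and 34.01 CPM in APP/PS1. Its WT libraries differed from each other by more than the group means did, and its log2 fold change was 0.26 (SE 0.29). Wfdc2, a secreted protein with protease inhibitor domains, was low throughout, at 1.03 to 1.35 CPM in WT and 1.96, 1.74 and 1.35 CPM in APP/PS1, and was highest in APP/PS1 replicate 1.

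**Figure D2:**
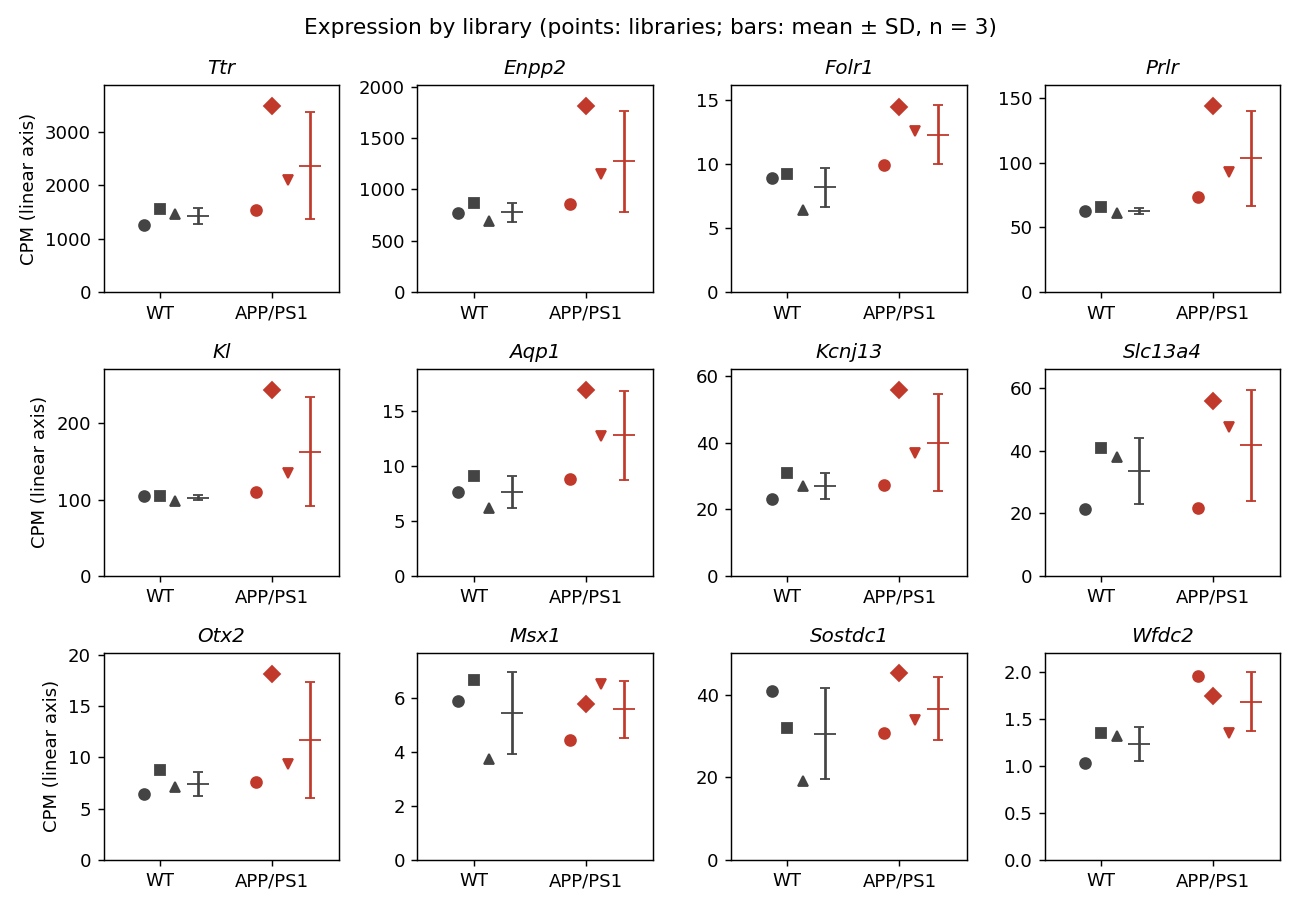
CPM of 12 of the genes in each library on linear axes from 0, WT in grey and APP/PS1 in red, with symbols for libraries (WT: circle 1, square 2, triangle 4; APP/PS1: circle 1, diamond 2, inverted triangle 3) and bars for mean ± SD. APP/PS1 replicate 2 is the top point for Ttr, Enpp2, Folr1, Prlr, Kl, Aqp1, Kcnj13, Slc13a4, Otx2 and Sostdc1, and not for Msx1 or Wfdc2.

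The 3 receptor genes were higher in every APP/PS1 library than in any WT library. Folr1 encodes the folate receptor that carries folate into the ventricle. It stood at 8.87, 9.17 and 6.40 CPM in WT and at 9.87, 14.4 and 12.5 CPM in APP/PS1, with a log2 fold change of 0.59 (SE 0.20). Prlr, the prolactin receptor gene, stood at 62.7, 65.5 and 60.9 CPM in WT and at 73.1, 144 and 92.6 CPM in APP/PS1. Its log2 fold change was 0.71 (SE 0.24), with an unadjusted p of 0.0208 in edgeR's test (n = 3 each), the smallest among the 32. Kl encodes klotho, a coreceptor of fibroblast growth factor signalling, and stood at 105, 105 and 98.4 CPM in WT and at 110, 244 and 135 CPM in APP/PS1. For Prlr and Kl the WT libraries were close to each other, with SDs of 2.31 and 3.69 CPM against 36.7 and 71.5 CPM in APP/PS1.

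Among the 8 channel and transporter genes, APP/PS1 replicate 2 was the highest library for all 8. Aqp1, the water channel of the ventricular face of these cells, stood at 7.58, 9.04 and 6.20 CPM in WT and at 8.80, 16.9 and 12.7 CPM in APP/PS1. Slc4a5, an electrogenic sodium bicarbonate cotransporter, stood at 17.7, 18.7 and 17.6 CPM in WT and at 20.4, 41.2 and 26.6 CPM in APP/PS1, without overlap. Clic6, a chloride intracellular channel gene, stood at 37.7 to 44.3 CPM in WT and at 46.7, 92.1 and 59.1 CPM in APP/PS1. Their replicate 2 values were 1.91, 2.04 and 2.03 times the mean of the other 5 libraries.

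Kcnj13, an inwardly rectifying potassium channel, stood at 23.1 to 30.99 CPM in WT and at 27.2, 56.1 and 36.9 CPM in APP/PS1. Kcne2, a potassium channel subunit, stood at 6.36 to 7.88 CPM in WT and at 6.78, 14.2 and 9.60 CPM in APP/PS1. Both had APP/PS1 replicate 1 inside the WT range. Trpv4, a cation channel sensitive to cell volume, stood at 6.41 to 6.92 CPM in WT and at 7.23, 12.8 and 8.80 CPM in APP/PS1, without overlap. Slc13a4, a sodium sulfate cotransporter, had a pattern of its own, at 21.3, 41.0 and 37.8 CPM in WT and 21.8, 55.7 and 47.4 CPM in APP/PS1, low in replicate 1 of both genotypes. Slc39a4, a zinc importer, was at 0.995 to 1.91 CPM in WT and 1.53, 2.28 and 1.68 CPM in APP/PS1.

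The enzymes and the junction and matrix genes varied more in how APP/PS1 replicates 2 and 3 compared. Steap1, of a family of metalloreductases, stood at 1.59, 1.88 and 1.58 CPM in WT and 1.55, 5.47 and 3.26 CPM in APP/PS1, the largest log2 fold change of the 32 at 1.03 (SE 0.43). Ace, the angiotensin-converting enzyme gene, stood at 79.1 to 88.5 CPM in WT and 86.2, 140 and 102 CPM in APP/PS1. Rdh5, a retinol dehydrogenase, stood at 2.63 to 3.55 CPM in WT and 3.64, 5.12 and 5.86 CPM in APP/PS1, and was highest in replicate 3.

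Cldn2, a claudin that makes tight junctions permeable to small cations, stood at 10.1 to 11.9 CPM in WT and 11.2, 22.5 and 14.4 CPM in APP/PS1. The type VIII collagen genes differed, since Col8a1 stood at 12.2, 28.4 and 18.1 CPM in APP/PS1 and Col8a2 at 7.60, 15.3 and 15.6 CPM, so that Col8a2 was as high in replicate 3 as in replicate 2. In WT they stood at 11.5 to 12.9 CPM and 7.25 to 10.1 CPM. Col9a3, a type IX collagen gene, and Sulf1, an extracellular heparan sulfatase, had high values in both libraries, at 27.1 and 24.0 CPM for Col9a3 and 62.3 and 51.8 CPM for Sulf1, against 12.8 to 15.3 CPM and 30.4 to 31.6 CPM in WT. For Sulf1 the WT SD was 0.603 CPM and no APP/PS1 library overlapped WT.

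The homeobox factors Otx2 and Msx1 did not share a pattern. Otx2, which specifies and maintains this epithelium, stood at 6.39, 8.75 and 7.07 CPM in WT and at 7.59, 18.1 and 9.35 CPM in APP/PS1, with a log2 fold change of 0.66 (SE 0.33). Msx1 stood at 5.90, 6.67 and 3.74 CPM in WT and at 4.43, 5.76 and 6.53 CPM in APP/PS1, with a log2 fold change of 0.04 (SE 0.25). Msx1 was highest in WT replicate 2, and its direction changed to -0.31 with the replicate number as a block. The remaining 4 genes, Tmem72, Cab39l (a scaffold of a protein kinase complex), Calml4 (a calmodulin-like protein) and Vat1l, were all highest in APP/PS1 replicate 2, at 42.3, 64.4, 12.2 and 101 CPM, with WT ranges of 16.5 to 20.4, 35.8 to 41.0, 5.33 to 8.36 and 52.3 to 75.3 CPM. APP/PS1 replicate 1 lay inside the WT range for Cab39l (39.0 CPM), Calml4 (6.63 CPM) and Vat1l (53.9 CPM), and replicate 3 did for Calml4 (7.63 CPM).

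Since OTX2 is the factor of this set with a well known short recognition sequence, the promoters were searched for its core. RefSeq's promoter table of GRCm38.p6, the build also called mm10, held 33 windows for 23 of the 32 genes, each from 250 bases before to 50 bases after a start site. The letters TAATCC, read on both strands, were present in 3 of 33 windows (9.09%), against 7.06% of all 32851 windows. The letters TAATTG, a core bound by MSX1 that shares its first letters with the OTX2 core, were in 5 of 33 (15.2%) against 8.0% of all windows, and the forkhead core TGTTTAC in 1 of 33 (3.03%) against 3.65%. The stretches with TAATCC are shown because Otx2 itself is one of the 3 genes. Capitals mark the match or its reverse complement, on the gene's strand, for chr14:48665288-48665347 (Otx2, minus strand), chr11:105967894-105967953 (Ace, plus strand) and chr8:114205534-114205593 (Vat1l, plus strand).
Otx2: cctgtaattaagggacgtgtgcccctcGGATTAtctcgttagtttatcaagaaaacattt
Ace: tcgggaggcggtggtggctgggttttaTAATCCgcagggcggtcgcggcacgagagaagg
Vat1l: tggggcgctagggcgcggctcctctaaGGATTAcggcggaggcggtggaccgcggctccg
In APP/PS1 replicate 2 these 3 genes stood at 2.32, 1.59 and 1.47 times the mean of the other 5 libraries. Over all 32 genes this ratio ran from 1.06 to 2.78. A match is a description of the letters and was not tested for binding.

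How tightly the genes moved together was described from log2 CPM (prior count 3) across libraries. With all 6 libraries the median Pearson r over the 496 gene pairs was 0.88, 236 pairs (47.6%) had r over 0.9 and 3 pairs had r below 0. The first principal component held 85.4% of their variance. With APP/PS1 replicate 2 left out the median r over the same pairs was 0.80, 129 pairs (26.0%) had r over 0.9, 30 pairs were below 0, and the first component held 67.6%. With each gene centred on its own genotype mean, so that no difference between genotypes remained, the median r was 0.83. All 6 libraries, APP/PS1 replicate 2 among them, were kept for that value. For any gene tested, the median of its r with the 32 genes had a median of 0.04 over all genes with 6 libraries and 0.06 with 5, and 95% of genes lay under 0.71 and 0.86. Of the 32 genes, 26 lay above the first of these levels and 15 above the second. These are correlations over 6 or 5 libraries that share sequencing and scaling, and 1 high library weighs heavily in the first. The second holds a high library too, APP/PS1 replicate 3. Its median difference for the 32 genes from the rest of the 5 was 0.49 in log2 CPM. Taken in turn, the remaining libraries gave -0.23 to -0.01. How far the second r rests on APP/PS1 replicate 3 was not tested.

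The genes fell unevenly around this common course. For 25 of the 32, r with the mean of the other 31 genes was 0.87 to 0.99 with 6 libraries and 0.83 to 1.00 with 5. The other 7 lay under 0.8 with 6 libraries, namely Msx1 (0.40), Wfdc2 (0.41), Sostdc1 (0.59), Slc39a4 (0.62), Slc13a4 (0.70), Rdh5 (0.74) and Calml4 (0.77). Without APP/PS1 replicate 2 their values were 0.56, 0.08, 0.29, 0.20, 0.52, 0.76 and 0.21. Wfdc2 and Slc39a4 had the fewest estimated counts, 125 to 235 per library and at most 308 per library. Steap1, with as few as 184 estimated counts in a library, nevertheless had r of 0.99 and 0.96. The part of counting error in the loose values was not tested.

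**Figure D3:**
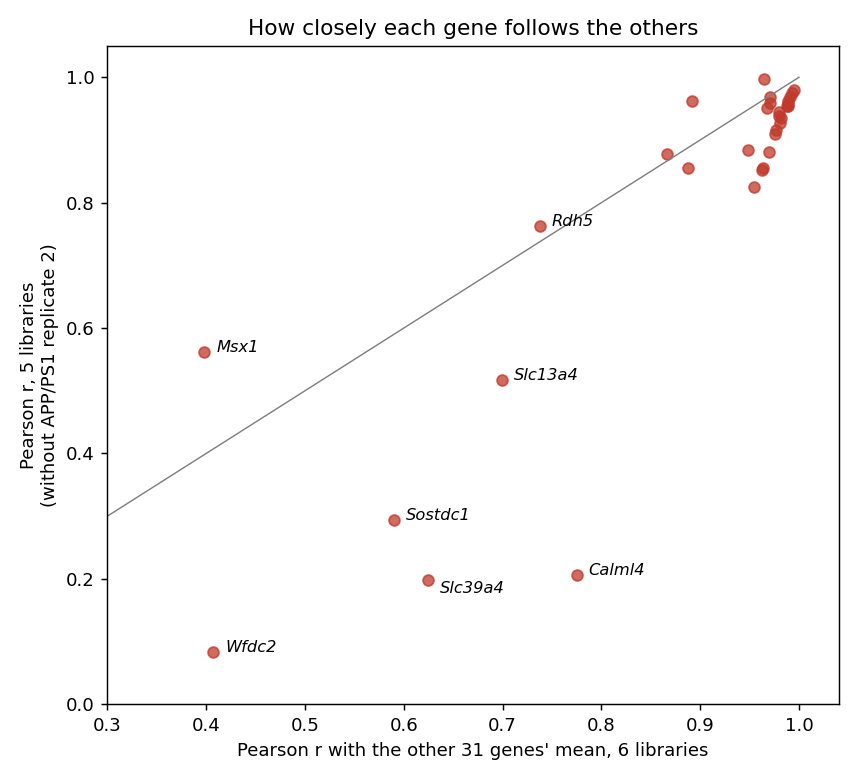
Pearson r of each gene's log2 CPM with the mean of the other 31 genes, over 6 libraries (x axis) and over the 5 without APP/PS1 replicate 2 (y axis), with the line of equal values. A cluster of 25 genes lies at 0.87 or more on x and 0.83 or more on y, and 7 labelled genes from Msx1 to Calml4 lie apart from it.

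Some of the loosely tied genes followed markers of neighbouring cells more closely. Slc13a4 had r = 0.90 with the mean of 14 fibroblast markers of the meninges and choroid stroma over 6 libraries, and 0.94 over 5, against 0.70 and 0.52 with the choroid plexus genes. Sostdc1 had r = 0.89 and 0.84, and Msx1 0.79 and 0.87, with the mean of 17 ependymal cilia genes, the markers of the ventricular lining. Ttr, by contrast, had 0.98 and 0.93 with the other choroid plexus genes, 0.44 and -0.18 with the ependymal genes and 0.46 and 0.50 with the fibroblast markers. Wfdc2, Slc39a4, Rdh5 and Calml4, also loosely tied, had r of -0.23 to 0.58 with either marker mean over 6 libraries. Each of these values was below the gene's own r with the choroid plexus genes. Over 5 libraries the values with either marker mean ran from -0.89 to 0.27, and not all were below the gene's own r. Calml4 had 0.25 with the ependymal genes, -0.37 with the fibroblast markers and 0.21 with the choroid plexus genes. Slc39a4 had -0.89, 0.27 and 0.20 in the same order. For Wfdc2 and Rdh5 the values with each marker mean stayed below the gene's own r. How many of all genes tested reach a high r with the marker means was not counted. The part of these neighbouring cells in the values was not tested.

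The ratio of the genes to Ttr gave the same picture on a linear scale. The coefficient of variation of CPM between the 6 libraries had a median of 35.5% over the 32 genes, and that of the ratio to Ttr had a median of 13.8% over the other 31. The ratio varied less than the gene's own CPM for 28 of 31 genes. Without APP/PS1 replicate 2 the medians were 19.5% and 11.7%, and the ratio varied less for 26 of 31. The steadiest ratios over 6 libraries were those of Clic6 (5.64%), Slc4a5 (6.87%) and Kcnj13 (6.96%), and Sostdc1 (37.7%) and Msx1 (35.0%) had the least steady ones.

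Much of the spread lay within the APP/PS1 group. The coefficient of variation between libraries of a genotype had a median over the 32 genes of 35.5% in APP/PS1 and 11.9% in WT, and it was larger in APP/PS1 for 28 of 32. Over all genes tested the medians were 16.2% and 8.43%. APP/PS1 replicate 1 lay within the WT range for 20 of 32 genes, above it for 11 and below it for 1, and over all genes tested 26.7% lay above it. APP/PS1 replicate 3 lay above all WT libraries for 27 of 32 genes and replicate 2 for 31 of 32, where 37.8% and 28.4% of all genes tested did. Relative to the mean of the other 4 libraries, with APP/PS1 replicate 2 set aside, the genes' median lay at 0.49 log2 units in APP/PS1 replicate 3 and -0.03 in replicate 1, and at -0.21, -0.01 and -0.23 in WT replicates 1, 2 and 4.

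Other genes known from this epithelium were read from a second set of 30 symbols that shared none with the 32, of which 29 were tested. Of these, 24 had a positive log2 fold change, with a median of 0.27, 5 were higher at an unadjusted p under 0.05 (1.9% of all genes tested were), and 0 passed over all genes in edgeR's test. Their mean profile had r = 0.99 with that of the 32 genes over 6 libraries and 0.96 over 5, and 18 of 29 were highest in APP/PS1 replicate 2. Krt18, a keratin of simple epithelia, stood at 4.19, 3.56 and 3.57 CPM in WT and 4.99, 7.49 and 6.34 CPM in APP/PS1, with a log2 fold change of 0.73 (SE 0.19). Slc29a4, a monoamine transporter, stood at 27.5 to 35.2 CPM in WT and 39.4 to 41.6 CPM in APP/PS1, with 0.37 (SE 0.10), and its APP/PS1 libraries were nearly equal. Many genes of this second set, such as those for sodium pump subunits, are also transcribed by neurons and glia.

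Markers of the other cells around the plexus followed the 32 genes less closely than the second set did. Over 6 and 5 libraries, r with the mean profile of the 32 genes was 0.55 and 0.14 for the ependymal list. It was 0.44 and 0.42 for the fibroblast list and 0.71 and 0.84 for the endothelial list. The hippocampal neuron list had -0.31 and -0.92, and so ran nearly opposite to the 32 genes over 5 libraries. For the thalamus and habenula list r was -0.65 and -0.73. The 17 ependymal cilia genes had a median log2 fold change of 0.05, with 10 positive and 0 at an unadjusted p under 0.05 in edgeR's test, and 0 passed. Their summed level was 69.5 to 101 CPM in WT and 78.6, 125 and 118 CPM in APP/PS1. Dnah11, singled out after its values were seen, gave 41.6 of the 118 CPM in APP/PS1 replicate 3, and the other 16 summed to 61.9 to 89.1 CPM in WT and 70.6, 110.4 and 76.2 CPM in APP/PS1. The list's median in replicate 3 lay at -0.17 log2 units from the other 5 libraries. In APP/PS1 replicate 2 their median lay 0.52 log2 units above the other 5 libraries and 10 of 17 were at their highest, where the 32 choroid plexus genes lay at 0.89. The 14 fibroblast markers, with a median log2 fold change of 0.02, lay at 0.37 in that library, at 0.82 in APP/PS1 replicate 3, and at -1.20 and -0.82 in replicate 1 of APP/PS1 and WT. Their summed level was 206 to 369 CPM in WT and 173, 485 and 294 CPM in APP/PS1. Igf2, also singled out after its values were seen, gave 300.4 of the 485 CPM in replicate 2, and the other 13 summed to 129 to 200.1 CPM in WT and 102, 185 and 189.8 CPM in APP/PS1. The 10 endothelial markers summed to 230 to 257 CPM in WT and 223 to 271 CPM in APP/PS1, and the 11 thalamus and habenula markers to 196 to 210 CPM over all 6 libraries. Globin genes of red blood cells are near-identical copies whose counts are uncertain, with Hbb-bs at 0 in WT replicate 4 and APP/PS1 replicate 2 while Hbb-b1 stood at 102 and 123 CPM there, so no sum is given. Alas2, a heme synthesis gene of red cell precursors, stood at 8.68 to 11.02 CPM in WT and at 6.75, 9.18 and 10.2 CPM in APP/PS1. The part of any of these in the choroid plexus values was not tested.

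**Figure D4:**
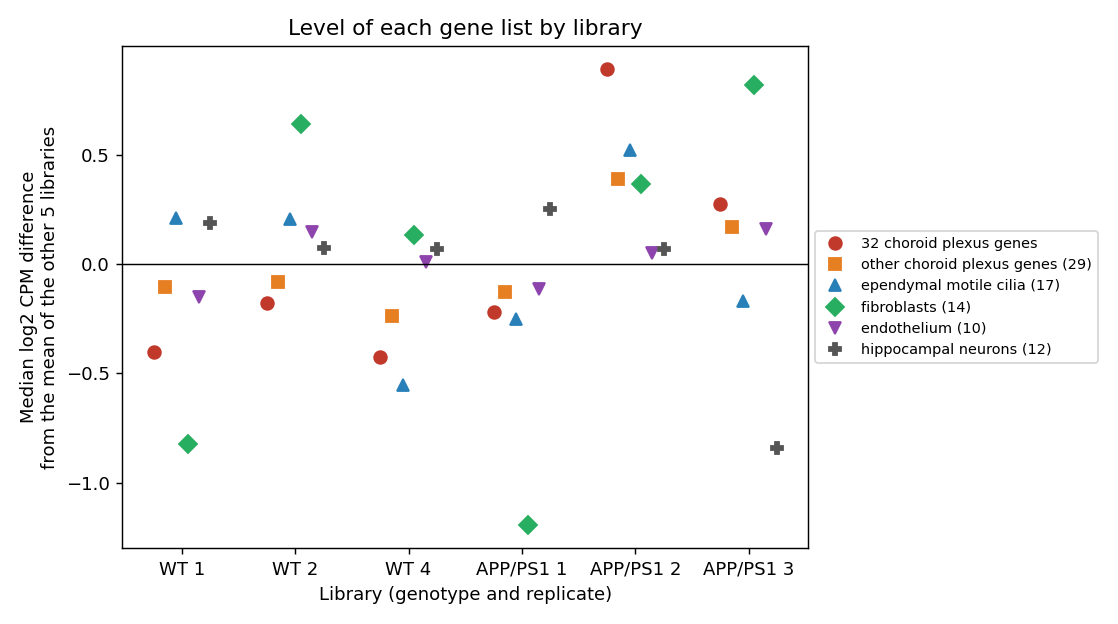
Median over each gene list of the log2 CPM difference between a library and the mean of the other 5 (y axis), by library (x axis). The 32 choroid plexus genes reach 0.89 in APP/PS1 replicate 2, where the ependymal list is at 0.52 and the fibroblast list at 0.37, and the hippocampal neuron list is at -0.84 in APP/PS1 replicate 3.

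The choroid plexus genes were not the largest differences of APP/PS1 replicate 2. Its log2 difference from the mean of the other 5 libraries was 0.11 to 1.53 over the 32 genes, and 27 of 32 lay above 0.63, a level that 5% of all genes tested exceeded, but 2 lay above the level of 1.24 exceeded by 1%. Of the 100 largest differences over all genes tested 0 belonged to the 32 genes, and of the 500 largest 18 did. Among the 11773 genes of at least 5 CPM, 28 of them in the set, 5 of the 30 largest differences belonged to the 32 genes. Among genes of at least 5 CPM outside all lists the largest were those of Gm7334, Hbb-b1 and Gdf1, which were near 0 in some libraries and not in others. Not all of the 12 largest were of this kind. Nrip1 stood at 112 CPM in APP/PS1 replicate 2 and 12.8 to 23.8 CPM elsewhere, and Sft2d2 at 36.4 CPM and 3.82 to 7.49 CPM. Outside the lists, the genes of at least 1 CPM whose course was most like that of the 32 included Mdfic, with r of 1.00 over 6 libraries and 0.98 over 5. Mdfic stood at 6.41, 6.63 and 6.16 CPM in WT and 7.01, 12.9 and 9.10 CPM in APP/PS1. The glucose transporter gene Slc2a12 (r of 0.98 and 0.95) stood at 27.9 CPM in APP/PS1 replicate 2 and 13.1 to 18.2 CPM elsewhere, while Zfc3h1, also among the 12 most alike, ranged only from 97.4 to 102 CPM.

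The small RNA columns were read for miRNAs known from epithelia and from cells with motile cilia. How far these miRNAs come from choroid plexus in these samples was not tested. MiR-204-5p and miR-211-5p are abundant in choroid plexus and retinal pigment epithelium, and miR-34b, miR-34c and miR-449a are known from cells with motile cilia. RefSeq (GRCm38.p6) places Mir204 inside Trpm3, on chromosome 19 at 22750610 to 22750631 for mature miR-204-5p. It places Mir211 inside Trpm1, on chromosome 7 at 64205831 to 64205852 for mature miR-211-5p. The mature sequences are shown because each pair shares its seed, bases 2 to 8 in capitals, so that the members of a pair can bind the same seed matches.
miR-204-5p: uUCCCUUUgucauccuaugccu
miR-211-5p: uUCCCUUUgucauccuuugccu
miR-34b-5p: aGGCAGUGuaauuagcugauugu
miR-449a-5p: uGGCAGUGuauuguuagcuggu
MiR-204-5p stood at 2512, 3525 and 2328 CPM in the columns headed WT1, WT2 and WT4 and at 2696, 4464 and 4962 CPM in those headed APP1, APP2 and APP3. The column APP1 lay inside the WT range and the columns APP2 and APP3 above it. The log2 fold change of miR-204-5p was 0.54 (SE 0.26). MiR-204-3p, the other mature form of Mir204, stood at 30.1, 43.5 and 24.8 CPM in WT and 27.4, 44.3 and 37.9 CPM in APP/PS1. Its log2 fold change was 0.16 (SE 0.27), and the columns APP1 and APP3 lay inside its WT range.

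MiR-211-5p, with the seed of miR-204-5p, followed the order of miR-204-5p within each genotype. It stood at 109, 172 and 107 CPM in WT and 124, 213 and 234 CPM in APP/PS1, with a log2 fold change of 0.56 (SE 0.29). Trpm3, which spans the miR-204 hairpin and is a member of the second set, stood in total RNA at 228, 217 and 228 CPM in WT and 235, 321 and 337 CPM in APP/PS1 replicates 1, 2 and 3. MiR-34b-5p stood at 500, 378 and 469 CPM in WT and 432, 760 and 518 CPM in APP/PS1, and was highest in the column APP2. MiR-449a-5p, with the seed of miR-34b-5p, lay the other way at low levels, at 3.16, 3.24 and 3.60 CPM in WT and 2.79, 2.46 and 1.38 CPM in APP/PS1, without overlap, with a log2 fold change of -0.58 (SE 0.28). MiR-200a-3p, of a family found in epithelia, was also lower on average in APP/PS1, at 64.0 to 109 CPM in WT and 41.3 to 71.3 CPM in APP/PS1, with a log2 fold change of -0.70 (SE 0.27). Of the 703 miRNAs tested 0 (0%) passed in edgeR's quasi-likelihood test, with 13 higher and 12 lower at an unadjusted p under 0.05, and DESeq2 called 0. Of the 14 listed miRNAs 12 were tested, with an adjusted p of 0.958 each in edgeR's test. Which mouse each small RNA column came from is not stated, so the small and total RNA values were not matched by mouse.

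**Figure D5:**
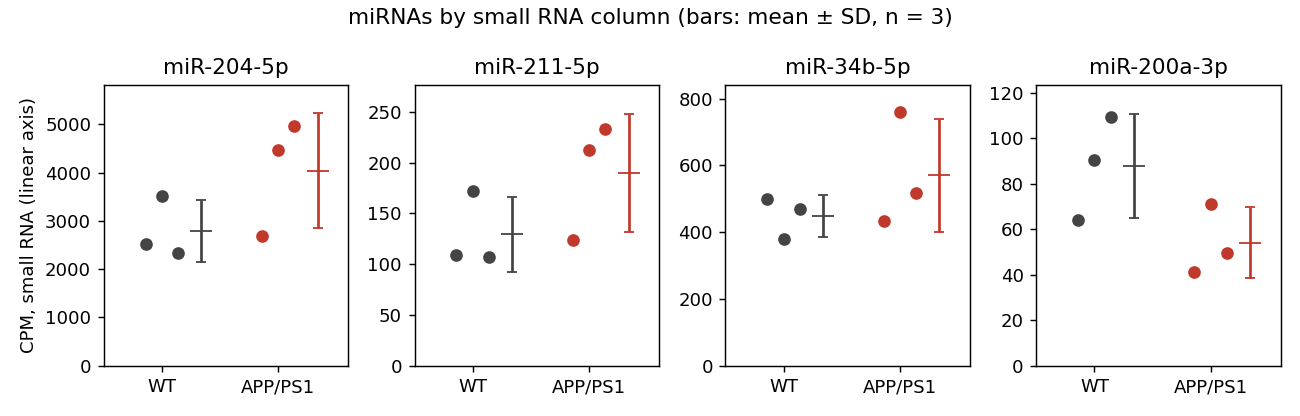
CPM of miR-204-5p, miR-211-5p, miR-34b-5p and miR-200a-3p in each small RNA column on linear axes from 0, WT in grey (left to right WT1, WT2, WT4) and APP/PS1 in red (APP1, APP2, APP3), with mean ± SD. The columns APP2 and APP3 lie above the WT columns for miR-204-5p and miR-211-5p, and column APP1 does not.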

How the data were processed

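For total RNA the authors deposited estimated counts, as whole numbers, for each gene symbol. HISAT2, StringTie, DESeq and the build mm10 are listed in the submitters' processing notes with no role. Annotation, strand setting and filters are not stated there. In the 6 libraries a value of 4 was found 1817 times against 897 for a value of 3, so 1 fragment was taken to stand for about 4 estimated counts. For small RNA the authors deposited raw counts of 1978 mature miRNAs, in columns that were assigned to a genotype only. Columns summed to 15593728 to 21631169 counts.

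APP/PS1 was compared with WT in R 4.3.3 with edgeR 4.0.16 (quasi-likelihood test, TMM, default filter), with Benjamini-Hochberg adjustment over all features at 0.05, and the procedure was tested on simulated data. SEs were derived from the fold change and the F statistic. The common biological coefficient of variation was 26.5%, with 3 libraries per genotype. The parts of depth and of the spread between libraries in the precision were not tested. The genes, lists and tests were chosen with earlier results of these data known. The rule for named genes took all 32 genes, the 2 members of each other list with the smallest p, the 12 outside genes most like the set and the 12 with the largest difference in APP/PS1 replicate 2, of which those the text turns on are given. Other settings were other size factors and filters, DESeq2 1.42.0, limma-voom (limma 3.58.1), estimated counts divided by 4, a replicate block and leaving out each library.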

Additional observations from a re-analysis of the deposited data

How the results depend on the processing

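No setting put any of the 32 genes past the adjusted threshold. The count of all genes past it was 1, with 26 in DESeq2, 2 with the replicate number as a block and 0 to 6 with 1 library left out. The 14 genes of the set at an unadjusted p under 0.05 became 0 to 26 with 1 library left out and 13 with the replicate block. The median log2 fold change of all 32 stayed within 0.31 to 0.85 over all settings. Msx1, at 0.04, turned to -0.00079 with upper quartile factors, to -0.31 with the replicate block and ranged from -0.17 to 0.21 with 1 library left out. The other 31 genes kept a positive fold change in every setting run. The median r over gene pairs was 0.80 to 0.92 with 1 library left out. The count of miRNAs past the threshold was 5 with no count filter and 0 to 3 with 1 column left out. Replicates 1 and 2 of the genotypes share a number, and whether they share more is not stated. Deviations of same-numbered libraries correlated at 0.09 and -0.04 across genes, and those of other pairs at -0.08 to 0.07. With 3 libraries per genotype these values cannot settle whether a batch was shared. Depth is lowest for Wfdc2 and Slc39a4, and its part in their values was not tested.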
